A study of Mus musculus with 3143 samples.

Results

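The p53 damage response was followed in single mouse kidney cells through 10 genes: Cdkn1a, Ccng1, Mdm2, Bax, Bbc3, Phlda3, Zmat3, Trp53inp1 and Gdf15, which are known p53 targets, and Atm, the kinase upstream of p53. They were taken by symbol from the 46517 gene names of the count table, and all 10 were found there. The groups were labelled IgAN, for IgA nephropathy, and Control. All mice were adult C57BL/6, and the labels do not say how the IgAN state was brought about. Glomeruli were digested with enzymes, cells that took up a green viability dye were sorted 1 to a well, and full-length RNA was read by Smart-seq2, which carries no molecular identifiers. The IgAN plates 313, 315, 316, 318, 322 and 325 held 1798 cells, the Control plates 314, 317, 321 and 326 held 1345, and plate values follow that order. The cells were read at medians of 231222 and 241543 reads per cell. No animal is named and each plate holds 1 group. Each group was therefore treated as 1 sample with no test and no p-value, the spread is that between plates, and effects of plate and of group cannot be told apart.

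The transcription factor p53 is held low in resting cells by Mdm2, a ubiquitin ligase that marks it for destruction. When DNA breaks, the kinase ATM phosphorylates p53 and Mdm2, p53 accumulates, and genes for cell cycle arrest, apoptosis and repair are switched on. ATM acts as a protein already present in the cell, so its RNA level is not a readout of its activity. Several of these targets, Cdkn1a among them, are also induced by other signals, including the stress of taking tissue apart.

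The cells formed classes named by marker RNA. Endothelial-like cells (998 IgAN, 615 Control) carried 16474 CPM of their 10 markers in IgAN and 16545 CPM in Control, where CPM is reads per 1000000 reads in genes. Podocyte-like cells (39 and 146) carried 22093 and 23171 CPM of their 9 markers, and mesangial-like cells (117 and 51) 11080 and 12778 CPM of theirs. No marker of these 3 lists was at 0 in its own class. Mesangial-like cells also held 5462 CPM of the endothelial markers in IgAN and 4647 CPM in Control. These markers exceeded 1000 CPM in 114 of 117 IgAN and 50 of 51 Control cells. By a stricter limit, at least 25% of the median marker sum of 2 main classes, 78 IgAN and 27 Control cells were mixed. The cells thus held much endothelial RNA in both groups. Proximal tubule-like (143 and 85), T or NK cell-like (93 and 128) and macrophage or dendritic-like cells (191 and 103) were compared as well, since at least 3 plates of each group held 10 such cells. Podocyte-like cells reached 10 on 2 IgAN plates and 4 Control plates. In the other classes levels are described without a comparison.

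The start regions of the targets were read from RefSeq (GRCm38.p6), 250 bases before to 50 bases after each start, for 8 of the 10 genes, which leaves Zmat3 and Trp53inp1. The p53 half-site consensus, a motif of 10 bases that reads the same on both strands, was searched. The 8 genes had 12 windows, since some have more than 1 start. It occurred in 4 of these (33.3%), from Cdkn1a, Mdm2, Bax and Ccng1, and in 8.36% of all 32851 windows. The targets Bbc3, Phlda3 and Gdf15 had no match in their windows, and neither had Atm. The 4 matched windows are shown for their matches, in capitals, and that of Atm because it was the 1 gene called between the groups. Only the Cdkn1a window held a pair of exact half-sites at most 13 bases apart. They began 73 and 51 bases before the start, a spacing found in 0.073% of all windows. Half-sites with a mismatch were not searched or marked. The 10 bases right after the second half-site, tgacatgttc, differ from the consensus only in their first base. The other Cdkn1a start, chr17:29093519-29093818, lies downstream of this one and held no exact match.
Cdkn1a, chr17:29090729-29091028, plus strand: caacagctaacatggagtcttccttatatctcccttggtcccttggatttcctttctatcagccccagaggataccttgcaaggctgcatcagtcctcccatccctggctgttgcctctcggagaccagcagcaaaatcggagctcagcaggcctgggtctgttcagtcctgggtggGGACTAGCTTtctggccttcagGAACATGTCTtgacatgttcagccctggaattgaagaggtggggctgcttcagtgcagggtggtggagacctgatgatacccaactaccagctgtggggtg
Mdm2, chr10:117710709-117711008, minus strand: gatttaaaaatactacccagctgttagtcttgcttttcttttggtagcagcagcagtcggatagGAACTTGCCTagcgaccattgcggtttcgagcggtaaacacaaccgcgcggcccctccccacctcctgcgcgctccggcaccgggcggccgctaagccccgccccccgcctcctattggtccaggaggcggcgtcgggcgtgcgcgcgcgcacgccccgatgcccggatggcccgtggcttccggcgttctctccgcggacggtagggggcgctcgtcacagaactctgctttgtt
Bax, chr7:45466849-45467148, minus strand: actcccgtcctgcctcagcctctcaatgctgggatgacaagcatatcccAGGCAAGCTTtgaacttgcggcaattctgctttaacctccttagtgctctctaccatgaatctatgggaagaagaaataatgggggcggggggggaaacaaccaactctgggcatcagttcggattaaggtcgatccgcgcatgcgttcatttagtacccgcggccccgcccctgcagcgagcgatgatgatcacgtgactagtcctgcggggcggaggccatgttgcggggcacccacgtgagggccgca
Ccng1, chr11:40755237-40755536, minus strand: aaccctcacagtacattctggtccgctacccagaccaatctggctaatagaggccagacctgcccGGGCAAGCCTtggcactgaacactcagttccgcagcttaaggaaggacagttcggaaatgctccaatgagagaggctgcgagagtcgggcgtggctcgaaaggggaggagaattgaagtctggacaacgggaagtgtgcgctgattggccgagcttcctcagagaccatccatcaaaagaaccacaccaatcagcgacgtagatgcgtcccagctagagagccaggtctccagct
Atm, chr9:53536622-53536921, minus strand: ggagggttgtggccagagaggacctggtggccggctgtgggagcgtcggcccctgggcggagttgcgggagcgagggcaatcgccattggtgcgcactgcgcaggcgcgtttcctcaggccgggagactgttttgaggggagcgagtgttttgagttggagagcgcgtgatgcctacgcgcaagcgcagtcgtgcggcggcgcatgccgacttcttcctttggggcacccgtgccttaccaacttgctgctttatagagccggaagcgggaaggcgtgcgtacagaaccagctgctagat

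The first question was whether these genes differed between IgAN and Control inside a cell type. A gene counted as measured at 10 CPM or more with a read in at least 10% of cells in 1 group. It was called when summed reads differed by log2 of 1 or more (1 CPM added) and no plate of at least 10 cells overlapped between the groups. Of 60 gene-by-class pairs 46 were measured, 9 of them differed by log2 of 1 or more, and 1 was called: Atm, higher in IgAN mesangial-like cells.

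In endothelial-like cells 0 of 8 measured genes were called, beside 0.764% of 9684 genes called higher and 0.713% called lower. In podocyte-like cells it was 0 of 7, beside 3.73% higher and 6.35% lower of 9547 genes. In mesangial-like cells it was 1 of 9, beside 1.29% higher and 1.48% lower of 10210 genes. In proximal tubule-like cells it was 0 of 8, beside 6.62% and 2.23% of 10385 genes. In macrophage or dendritic-like cells it was 0 of 8, beside 0.728% and 0.435%, while T or NK cell-like cells had 0 of 6, beside 0.466% and 1.25%. The median log2 difference of the measured genes of the set lay between -0.18, in podocyte-like cells, and 0.21, in proximal tubule-like cells. All measured genes had medians of -0.06 and 0.32 in these classes. The set thus showed no common shift by this rule, and with so few genes and plates a smaller shift was not detectable.

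**Figure D1:**
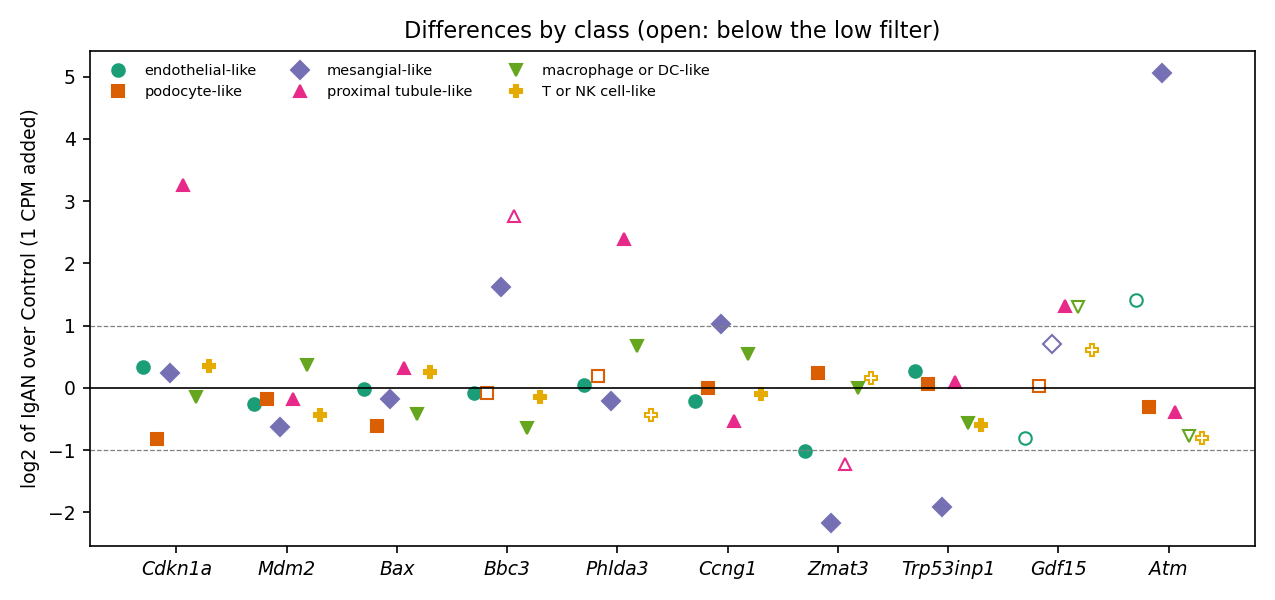
Log2 of IgAN over Control (vertical axis, 1 CPM added) for each gene (horizontal axis) and class (symbol), from summed reads; open symbols did not pass the low filter and dashed lines mark log2 of 1 either way. Most symbols lie between the dashed lines, and Atm in mesangial-like cells stands highest at 5.05.

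Cdkn1a (chr17:29090976-29100727) encodes p21, the inhibitor of cyclin-dependent kinases that carries the arrest arm of the response. Endothelial-like cells held 419 CPM in IgAN and 330 CPM in Control, a log2 difference of 0.34. The IgAN plates ran from 252 over a median of 454 to 570 CPM, and the Control plates were at 389, 299, 274 and 333 CPM. The highest plates were IgAN plates, but the lowest plate, 322, was IgAN too, so the groups overlapped.

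Macrophage or dendritic-like cells were as rich in Cdkn1a, with 336 CPM in IgAN and 371 CPM in Control, and their plates overlapped widely (170 to 431 and 118 to 549 CPM). The class is named from its fixed markers, but its largest cluster (115 IgAN and 48 Control cells) was led by Treml4, Cd300e and Adgre4, known from monocytes, for which no list was set. In that cluster Cdkn1a was at 409 and 448 CPM, in the cluster led by Cd209a and Fn1 at 259 and 350 CPM, and in the cluster led by C1qc and C1qa at 235 and 141 CPM.

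T or NK cell-like cells held 147 CPM of Cdkn1a in IgAN and 115 CPM in Control, but the groups differed in their mix of clusters. The cluster led by Cd3e and Tcf7 (32 IgAN and 83 Control cells) held 49.3 and 65.0 CPM, and the cluster led by Gzma and Ncr1 (61 and 45 cells) 214 and 208 CPM. Mesangial-like cells held 71.8 and 60.9 CPM. In Control mesangial-like cells 3 of 51 cells held 91.0% of the Cdkn1a reads, and without plate 326, at 192 CPM, the other Control plates were at 6.90 and 9.32 CPM. Podocyte-like cells were lowest of these classes, at 7.45 CPM in IgAN and 14.0 CPM in Control. The 2 IgAN plates of podocyte-like cells held 5.26 and 1.53 CPM, and the Control plates 9.77, 37.2, 3.27 and 6.57 CPM. In Control podocyte-like cells 3 of 146 cells held 71.6% of the Cdkn1a reads. Podocyte-like cells instead carried another inhibitor of the family, Cdkn1c, which encodes p57, at 2764 and 3713 CPM.

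Among the compared classes Cdkn1a differed most in proximal tubule-like cells, with 174 CPM in IgAN and 17.3 CPM in Control, a log2 difference of 3.26. The IgAN plates were at 285, 12.7, 62.1 and 149 CPM, against 4.62, 47.4 and 3.32 CPM on the Control plates. Plate 316 of IgAN lay below plate 317 of Control, so the pair was not called. In Control 3 of 85 cells held 78.1% of the Cdkn1a reads, and in IgAN 3 of 143 held 28.4%. Endothelial RNA differed as well: the 10 endothelial markers summed to 4907 CPM in IgAN (plates 227 to 9081) and 202 CPM in Control (plates 144 to 299). All 10 were higher in IgAN and none was at 0. Among cells with at most 1000 CPM of these markers, 78 in IgAN and 85 in Control, Cdkn1a was at 57.2 and 17.3 CPM, a log2 difference of 1.67. The 17 immediate early and dissociation genes were all higher in IgAN proximal tubule-like cells, with a median log2 of 3.12. The 10 proximal tubule markers were all lower, at 11959 CPM in IgAN and 22621 CPM in Control. Beyond these values, their part in the Cdkn1a difference was not tested. Of the classes not compared, parietal epithelial-like cells held 134 CPM in IgAN and 5.70 CPM in Control. Cells of the distal tubule or collecting duct type held 222 CPM in IgAN and 56.7 CPM in Control. Their median sum of endothelial markers was 1364 and 240 CPM, and in the 33 IgAN and 43 Control cells with at most 1000 CPM of them Cdkn1a was at 76.8 and 58.2 CPM.

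**Figure D2:**
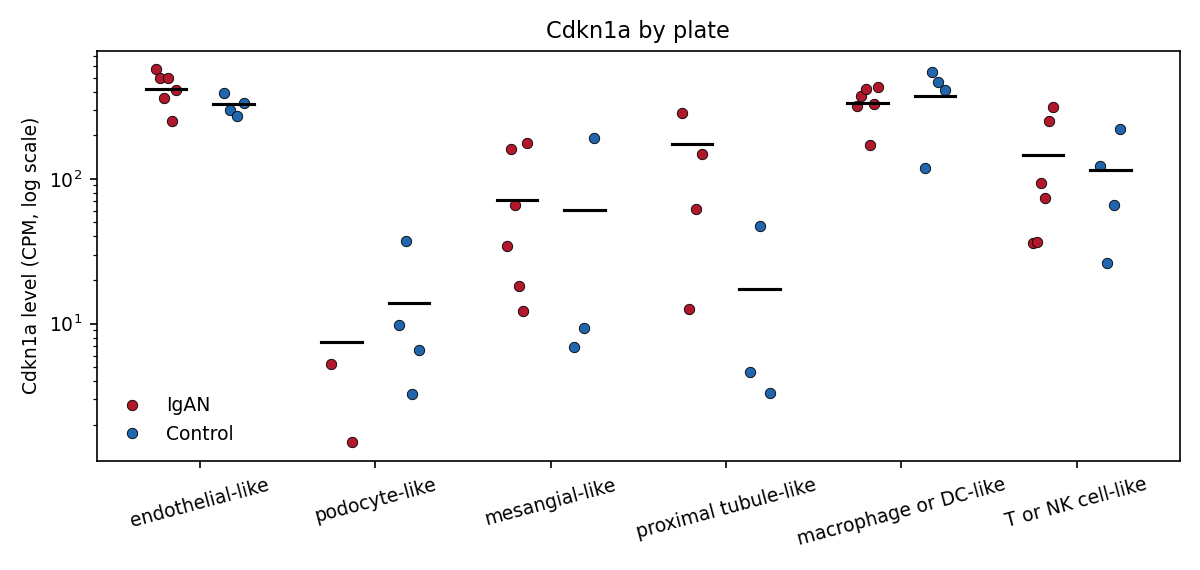
Cdkn1a level (CPM, log scale) on each plate with at least 10 cells of the class, by class, with IgAN left of Control; points are plates and bars the level of all summed reads of the group. Plates of the groups overlap in every class. The bars of podocyte-like cells are lowest in each group, while Control plates of some other classes lie among theirs.

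Cdkn1a was also read as the share of cells that held it. Cdkn1a reached 10 CPM in 74.4% of IgAN endothelial-like cells (95% binomial interval 71.6 to 77.1) and in 52.4% of Control ones (48.3 to 56.4). The IgAN plates were at 84.3, 75.4, 64.2, 90.4, 60.3 and 67.3%, against 61.1, 43.5, 33.7 and 61.4% on the Control plates. Plate 322 of IgAN lay below 2 Control plates, so these groups overlapped too. With each cell thinned to 50000 reads, a read was found in 73.7% and 55.3% of cells. The median endothelial-like cell held 164 CPM in IgAN and 11.8 CPM in Control. The share at 10 CPM was higher in IgAN in 11 of 11 classes, which share plates and are not independent. It was higher in 9 classes for Mdm2 and for Phlda3, in 8 for Bax, in 7 for Gdf15, in 6 each for Atm, Bbc3, Ccng1 and Zmat3, and in 3 for Trp53inp1. The 11 classes for Cdkn1a included neutrophil-like cells, at 75.0% of 8 IgAN cells and 16.7% of 12 Control cells, although none of either reached 100 CPM of it. Such shares were not taken for genes outside the 10, so these counts of classes have no background.

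In proximal tubule-like cells the share of cells at 10 CPM of Cdkn1a was 71.3% in IgAN (plates 51.9 to 86.7%) and 16.5% in Control (plates 11.4 to 26.1%). These plates did not overlap, but how many of all genes would do so by this measure was not counted. A read was held by 64.3% and 27.1% of thinned cells. The endothelial RNA given above was also higher in IgAN, and its part in this share was not tested.

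At 100 CPM the IgAN share was higher in 9 classes and lower in 1. It was 53.0% and 40.2% in endothelial-like cells (plates 28.7 to 76.4% and 28.1 to 51.5%) and 47.1% and 49.5% in macrophage or dendritic-like cells. Low Cdkn1a counts were widespread on the plates: of 1770 cells under 100 CPM in a well touching a cell of 100 CPM or more, 72.1% held a read. Their summed reads stood at 10.1 CPM, so the limit of 10 CPM lies at the level of such cells. Where cells lacked such a touching well but shared its row or column, 54.9% of 277 held a read, at 5.70 CPM in summed reads. The part of neighbouring wells in the shares at 10 CPM was not tested.

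Endothelial-like cells of the groups fell mostly in different clusters, so Cdkn1a was also set out by cluster. In the cluster led by Fgf1, Ptpru and Dll4, which held 42 IgAN and 415 Control cells, it was at 326 and 257 CPM. In the cluster led by Hspg2, Stab1 and Sele (341 and 67 cells) it was at 483 and 501 CPM. In the cluster led by the matrix genes Fbln5 and Fbln2 (109 and 111 cells) it was at 769 and 447 CPM. In a cluster with Gpihbp1 and Nostrin among its leading genes it was at 222 CPM in 281 IgAN cells and 390 CPM in 13 Control cells. A cluster with Cxcl10 and Cxcl1 in the lead, almost all IgAN (219 of 221 cells), held 483 CPM. IgAN was thus higher in 2 and lower in 2 of the 4 clusters with at least 10 cells of each group. A further cluster, of 6 IgAN and 7 Control cells, was too small to read.

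Ccng1 (chr11:40748552-40755311) encodes cyclin G1, a p53 target that acts with phosphatase 2A on Mdm2. It was highest in proximal tubule-like cells, at 150 CPM in IgAN and 218 CPM in Control, with plates at 137, 315, 89.6 and 96.8 CPM and at 102, 239 and 253 CPM. Endothelial-like cells held 33.1 and 38.3 CPM, and podocyte-like cells 111 and 111 CPM. In mesangial-like cells it was at 68.1 and 33.0 CPM, log2 1.02. The IgAN plates ran from 12.0 over a median of 68.0 to 183 CPM, against 46.4, 2.33 and 23.0 CPM on the Control plates, and 3 of 51 Control cells held 79.2% of the reads.

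Mdm2 (chr10:117688875-117710758), the feedback inhibitor of p53, was among the most even genes. It lay between 36.7 CPM (parietal epithelial-like cells of Control) and 138 CPM (B or plasma cell-like cells of Control) in the 9 classes that held at least 20 cells in each group. Endothelial-like cells held 83.7 CPM in IgAN and 101 CPM in Control. The IgAN plates ran from 58.9 over 94.0 to 106 CPM, and the Control plates were at 89.9, 98.3, 68.9 and 123 CPM. Mesangial-like cells held 82.5 and 129 CPM, log2 -0.63, with IgAN plates at 34.9 to 176 CPM and Control plates at 45.7, 147 and 131 CPM.

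Bax (chr7:45461697-45466898) encodes the protein that opens the outer mitochondrial membrane in apoptosis. Endothelial-like cells held 180 CPM in IgAN and 183 CPM in Control. The IgAN plates ran from 128 over 148 to 278 CPM, and the Control plates were at 182, 182, 171 and 190 CPM. All IgAN plates but 322 lay below every Control plate, and plate 322 lay above them. Podocyte-like cells held 47.4 and 72.7 CPM, the lowest of the compared classes in each group. A gene model on the same strand shares 192 exon bases with Bax, 12.2% of its exon length, and is not in the table.

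Bbc3 (chr7:16308393-16318205) encodes PUMA, a BH3-only protein that frees Bax to act. It was highest in the T or NK cell-like class, at 129 CPM in IgAN and 144 CPM in Control, and next in macrophage or dendritic-like cells, at 90.8 and 142 CPM. For those the IgAN plates ran from 31.2 over 81.4 to 156 CPM, against 109, 162, 179 and 142 CPM on the Control plates. Endothelial-like cells held 33.7 and 35.7 CPM, and podocyte-like cells 3.82 and 4.11 CPM. In mesangial-like cells it was at 11.6 and 3.13 CPM, log2 1.61, where 3 of 117 IgAN cells held 75.9% of the reads and plate 315 alone, at 52.4 CPM, was above 7.09 CPM.

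Phlda3 (chr1:135766119-135769136) encodes a PH-domain protein that competes with Akt for membrane lipid and so represses it. It was highest in parietal epithelial-like cells, at 161 CPM in 49 IgAN cells and 200 CPM in 24 Control cells. Endothelial-like cells followed with 117 and 113 CPM, on IgAN plates from 49.1 over 115 to 226 CPM and Control plates at 82.6, 94.8, 214 and 119 CPM. Mesangial-like cells held 65.9 and 76.4 CPM, T or NK cell-like cells 3.32 and 4.84 CPM, and podocyte-like cells 1.30 and 1.02 CPM. In proximal tubule-like cells it was at 32.7 and 5.39 CPM, log2 2.40. The IgAN plates were at 59.2, 19.3, 7.55 and 14.3 CPM, against 0.771, 14.9 and 1.22 CPM. Plate 317 of Control lay above 2 IgAN plates, so the pair was not called. In IgAN 3 of 143 cells held 62.8% of the Phlda3 reads, and in Control 3 of 85 held 82.2%. In the cells with at most 1000 CPM of endothelial markers Phlda3 was at 37.8 and 5.39 CPM.

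Zmat3 (chr3:32334792-32366014) encodes a zinc finger RNA-binding protein, and Trp53inp1 (chr4:11156431-11174379) a nuclear and autophagy protein that helps activate p53. Zmat3 reached 24.5 CPM at most among the compared classes. In mesangial-like cells it was at 4.65 CPM in IgAN and 24.5 CPM in Control, log2 -2.17. The IgAN plates ran from 0.416 over 1.12 to 20.9 CPM, and the Control plates were at 10.5, 62.9 and 1.59 CPM. Of the Control reads 96.0% lay in 3 of 51 cells. In endothelial-like cells it was at 4.68 and 10.5 CPM, log2 -1.02, on overlapping plates.

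Trp53inp1 in mesangial-like cells was at 9.12 CPM in IgAN and 36.9 CPM in Control, log2 -1.91. The IgAN plates ran from 0.416 over 7.26 to 21.8 CPM, against 40.7, 55.0 and 20.3 CPM on the Control plates. Only plates 316 (21.8 CPM) and 326 (20.3 CPM) crossed, and the pair was called lower without either of them, when cells were thinned and by the mean of per-cell CPM. In Control 3 of 51 cells held 74.8% of the reads. Podocyte-like cells held 59.0 and 56.3 CPM, T or NK cell-like cells 49.8 and 75.6 CPM, and B or plasma cell-like cells 18.4 CPM in 26 IgAN cells and 131 CPM in 117 Control cells.

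Gdf15 (chr8:70629393-70632456) encodes a secreted stress hormone of the TGF-beta superfamily. It was near 0 in most cells and high in a few. Macrophage or dendritic-like cells held 37.0 CPM in IgAN and 14.5 CPM in Control, but 3 of 191 IgAN cells held 94.8% of the reads and 3 of 103 Control cells 99.3%. Proximal tubule-like cells held 31.8 and 12.2 CPM, log2 1.32, with IgAN plates at 27.4, 0.276, 161 and 23.7 CPM and Control plates at 24.1, 15.4 and 4.87 CPM. Mesangial-like cells held 17 reads in IgAN (0.628 CPM) and 0 in Control, which allows up to 0.229 CPM. Over all cells 43 of 1798 IgAN cells (2.39%) and 13 of 1345 Control cells (0.967%) reached 10 CPM.

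**Figure D3:**
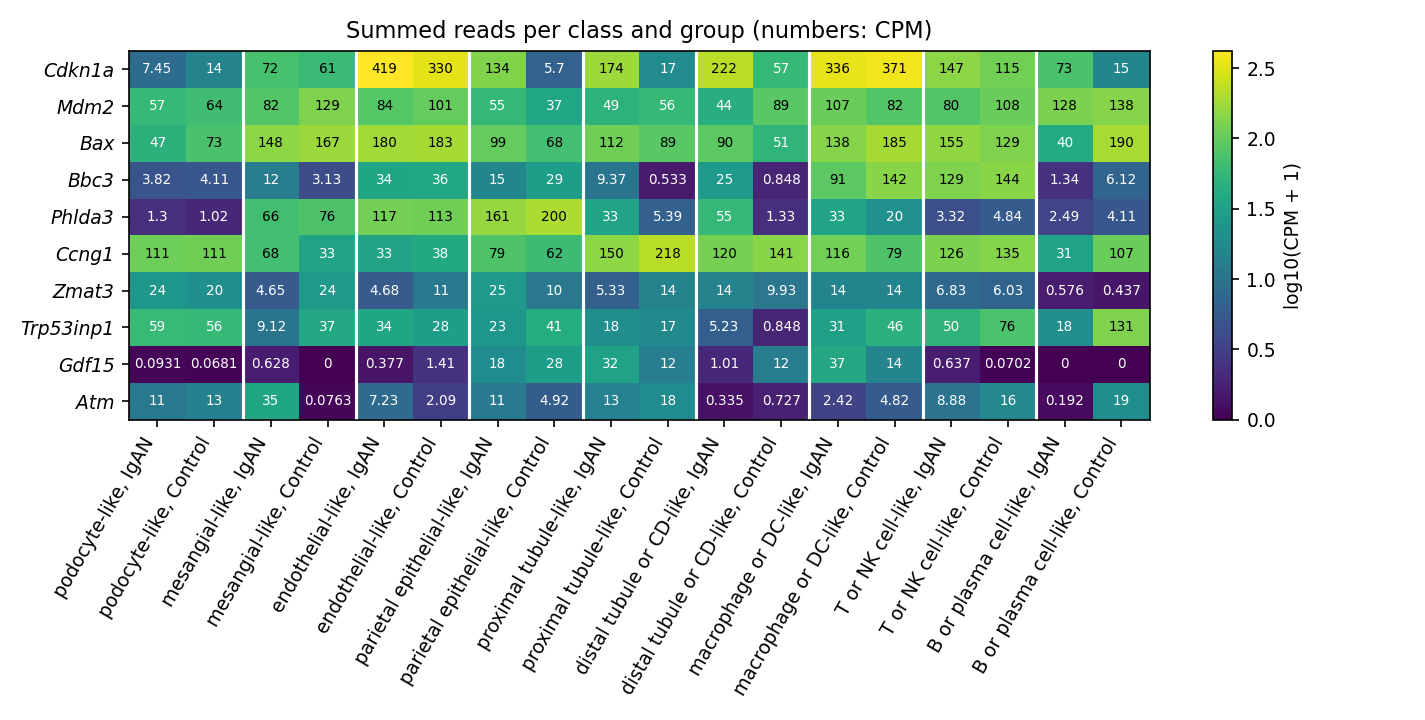
Level of each gene (rows) in each class with at least 20 cells in both groups (columns, IgAN left of Control), in CPM of summed reads, with the colour on a log10 scale. Cdkn1a is highest in endothelial-like and macrophage or dendritic-like (DC) cells, Phlda3 in parietal epithelial-like cells and Bbc3 in immune classes; CD is collecting duct.

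Atm (chr9:53439149-53536740) was the 1 call. Mesangial-like cells held 942 reads in IgAN (34.8 CPM, Poisson interval 32.6 to 37.1) and 1 read in Control (0.0763 CPM, 0.00193 to 0.425). With 1 CPM added the log2 difference was 5.05, and as a ratio of reads per read sequenced it was 456 (81.6 to 18015, counting error only). The IgAN plates were at 3.62, 49.7, 8.70, 0.416, 104 and 82.4 CPM, against 0.238, 0 and 0 CPM on the Control plates. Every IgAN plate lay above every Control plate, though plate 318 did so on 2 reads. Without each plate in turn the log2 of Atm in mesangial-like cells stayed between 4.52 and 5.41, and the call was lost with cells thinned to 50000 reads and with a 50 CPM filter.

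Few cells carried the difference. The 3 cells with the most reads, 381, 224 and 170, held 82.3% of the 942 reads, and 5 cells held 90%. They came from plates 322, 315 and 325. Atm reached 10 CPM in 12 of 117 IgAN cells (10.3%, 5.41 to 17.2) and in 0 of 51 Control cells (exact upper bound 6.98%). Atm passed the low filter through the IgAN group alone. Concentration in 3 cells was not particular to Atm. In the same 117 IgAN cells it was lowest for Bax, at 23.3% of reads. It was 43.4% for Cdkn1a, 54.3% for Trp53inp1, 75.9% for Bbc3 and 82.4% for Gdf15, which had 17 reads.

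The wells added detail. On plate 325, where 7 mesangial-like cells reached 10 CPM, the cell with 170 reads sat in well F11. Of the other 6, those in G11, G12, F10 and E10 (55, 22, 10 and 4 reads) touch F11, and those in G9 and B11 (3 and 2 reads) do not. Of the 8 cells around F11, 7 held an Atm read. The cell in G15 of plate 316, with 34 reads, touched 2 cells with more, of up to 90 reads. The cells in D16 of plate 322, E23 of plate 315 and N18 of plate 313 (381, 224 and 23 reads) touched no cell with more than 1. With cells left out whose well touches one with more Atm reads, an alternative chosen after seeing these wells, 67 of 117 IgAN and 31 of 51 Control cells stayed. Atm was then at 49.6 and 0.112 CPM. Since that choice is made on Atm reads and always keeps the cells with the most, its Atm value is a description and no support.

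**Figure D4:**
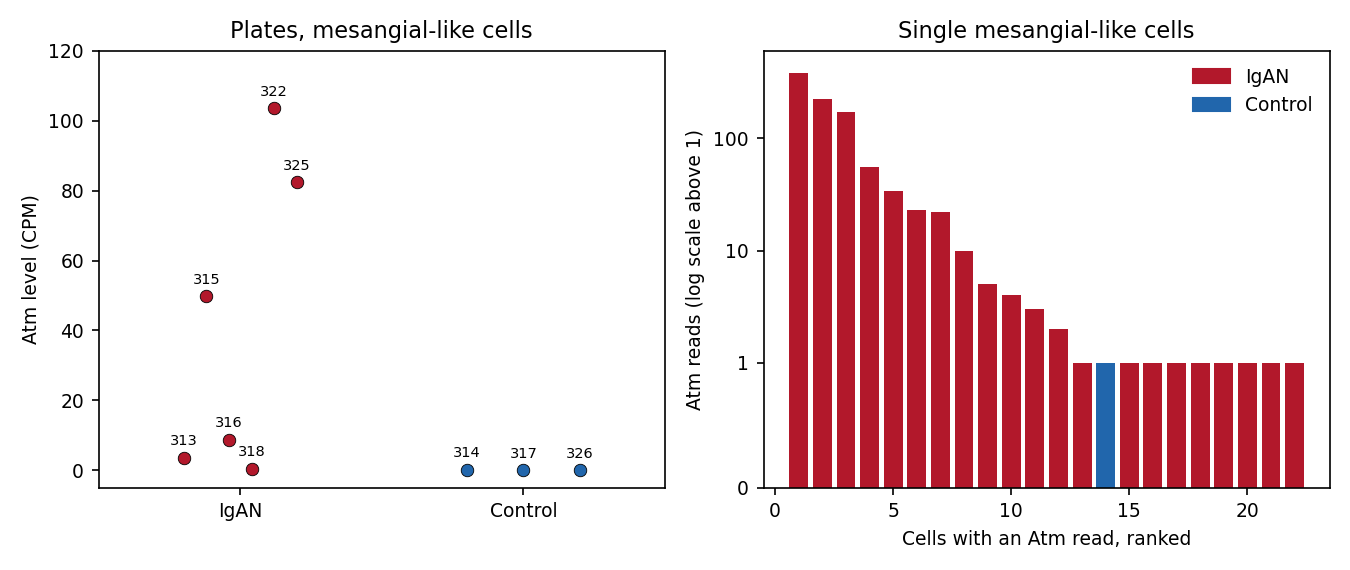
Left, Atm level (CPM) on each plate with at least 10 mesangial-like cells, with plate numbers; right, Atm reads (log scale above 1) of each mesangial-like cell with a read, ranked. Plates 322, 325 and 315 of IgAN stand high, 3 cells hold most of the reads, and 1 Control cell holds 1 read.

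Markers of other cells differed in the same mesangial-like cells. The 8 parietal epithelial markers summed to 2217 CPM in IgAN (plates 1350 to 2587) and 690 CPM in Control (plates 307 to 1190), 6 of them higher in IgAN. The 10 endothelial markers summed to 5462 CPM (5021 to 6198) and 4647 CPM (4377 to 5115), 9 of them higher. The 13 macrophage or dendritic markers summed to 158 CPM (28.5 to 465) and 59.5 CPM (34.5 to 97.4), 12 of them higher. None of these markers was at 0, and their part in the Atm difference was not tested. Endothelial-like cells held 7.23 CPM of Atm in IgAN (plate 325 highest, at 41.6 CPM) and 2.09 CPM in Control, below the low filter, and macrophage or dendritic-like cells 2.42 and 4.82 CPM.

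In the other classes Atm was not called, and in some it stood the other way. B or plasma cell-like cells, too few on the IgAN plates to compare, held 1 read in 26 IgAN cells (0.192 CPM) and 428 reads in 117 Control cells (18.7 CPM). Podocyte-like cells held 10.5 CPM in IgAN and 13.3 CPM in Control, and proximal tubule-like cells 13.4 and 17.8 CPM. T or NK cell-like cells held 8.88 and 16.3 CPM, and the direction turned between their clusters, at 0.223 and 19.9 CPM in the Cd3e and Tcf7 cluster and 14.9 and 9.80 CPM in the Gzma and Ncr1 cluster. In IgAN podocyte-like cells 3 of 39 cells held 99.1% of the 113 reads. In Control proximal tubule-like cells 3 of 85 held 98.8% of the 334 reads. Atm reached 10 CPM in 79 of all 1798 IgAN cells (4.39%) and 46 of all 1345 Control cells (3.42%), so the gene was read from few cells at a time in both groups.

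Reads of the sparse genes in general also went with place on the plate, with cells pooled over plates and classes. In these pooled shares, place cannot be told apart from differences between plates or classes. Among cells under 100 CPM of Atm, a read was found in 12.0% of 349 cells touching a cell of 100 CPM or more, 9.96% of 1124 in its row or column, and 1.74% of 1606 elsewhere. For Gdf15 the shares were 12.8%, 13.6% and 1.06%, and for Zmat3 13.3%, 13.3% and 6.62%. For Bbc3 they were 23.9%, 20.2% and 3.00%, and for Trp53inp1 19.2%, 19.7% and 5.39%. Whatever its source, this spread of low counts is why shares of cells are given at 10 CPM. For Cdkn1a that limit does not lie above it, since cells under 100 CPM in touching wells held 10.1 CPM in summed reads. A single read still reaches that level in the shallowest cells.

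**Figure D5:**
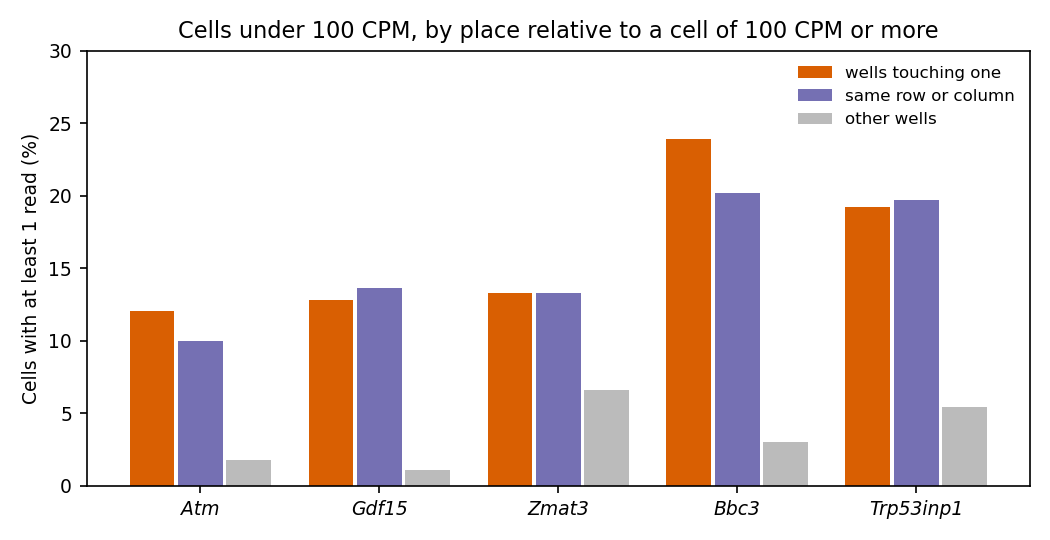
Percent of cells with at least 1 read of a gene among cells under 100 CPM of it, by place relative to a cell of at least 100 CPM on the same plate: wells touching it, wells of its row or column, and other wells. Cells are pooled over plates and classes, and all 5 genes are lowest in other wells.

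Levels of different genes can be set side by side only per kb of exon. In endothelial-like cells of IgAN the order was Cdkn1a (118 CPM per kb), Bax (114), Phlda3 (75.2), Mdm2 (16.5), Bbc3 (15.8), Ccng1 (9.41) and Trp53inp1 (5.27), with Atm, Zmat3 and Gdf15 under 1. In Control Bax (116) came before Cdkn1a (92.9), and the next 5 stood in the same order. In podocyte-like cells Ccng1 (31.5 in IgAN, 31.7 in Control) and Bax (30.1 and 46.1) led, and Cdkn1a was the fifth of the 10 genes in each group.

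The targets did not follow one pattern across cell types. Over 19 class-by-group sums of at least 20 cells, Pearson's r between any pair lay between -0.53 (Ccng1 and Phlda3) and 0.54 (Bax and Cdkn1a). These sums share plates, and r is a description. The 3 genes most like Cdkn1a were Lpar6 (0.86), Ccrl2 (0.85) and Gm26728 (0.82). Those most like Phlda3 were Id3, Dpysl3 and Cmtm3 (0.92 each), and those most like Bbc3 were Rgs10 (0.91), Tm6sf1 (0.88) and Xdh (0.87). Those most like Mdm2 were Tor4a, Mdm4 and Taf1c (0.82 each), where Mdm4 is the other p53 inhibitor of its family. Those most like Bax were Gtf2e2 (0.85), Slu7 (0.84) and Zbtb22 (0.84), and those most like Ccng1 were Fuca2 (0.86), Mien1 (0.84) and H2afj (0.84). Those most like Atm were Kif20a (0.83), Fancm (0.76) and Cdca8 (0.75). For Gdf15 they were Gm20412 (0.84), Fam20c (0.83) and Dgkg (0.78), for Trp53inp1 Pan2 (0.84), Gm15787 (0.81) and Fig4 (0.79), and for Zmat3 Inppl1 (0.79), Tmtc4 (0.78) and Acp2 (0.77).

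Few of the genes were read together in a single cell. With cells thinned to 50000 reads, endothelial-like cells held reads of a mean of 2.47 of the 10 genes in IgAN and 2.29 in Control. Of IgAN endothelial-like cells with a Cdkn1a read 31.8% had an Mdm2 read, against 27.9% of those without one, and in Control the shares were 37.6% and 29.8%. For Phlda3 the IgAN shares were 35.3% and 25.6%, and for Bax 58.6% and 56.5%. Trp53inp1 stood the other way, with 12.4% of IgAN cells with a Cdkn1a read and 17.2% of those without, and 12.9% and 14.5% in Control. Proximal tubule-like cells with reads of 3 or more of the genes made up 49.0% in IgAN (40.5 to 57.4) and 16.5% in Control (9.31 to 26.1). The endothelial RNA described for that class was also higher in IgAN, and its part here was not tested.

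Other genes of the pathway were read as lists. Over all measured genes, 0.764% were called higher and 0.713% lower in endothelial-like cells. The shares were 3.73% and 6.35% in podocyte-like and 1.29% and 1.48% in mesangial-like cells. A single call in a list this short does not set the list apart from these shares. Of 25 further p53 targets 19 were measured in endothelial-like cells and 0 called, at a median log2 of 0.06. The most abundant were Plk2, a stress kinase (1341 CPM in IgAN, 1713 CPM in Control), and Btg2, an antiproliferative factor (1030 and 908 CPM). In podocyte-like cells 0 of 13 were called and in mesangial-like cells 0 of 19, at medians of -0.58 and -0.16. In proximal tubule-like cells Fas was called higher (76.3 and 2.83 CPM), 1 of 18, beside 6.62% of all measured genes. In macrophage or dendritic-like cells, with 18 measured, Gadd45a was called higher (37.4 and 12.0 CPM) and Pmaip1 lower (150 and 600 CPM). All measured genes there were called at 0.728% and 0.435%. T or NK cell-like cells had 0 of 17. Trp53, the p53 gene itself, was at 299 and 273 CPM in endothelial-like cells. It was called lower in IgAN mesangial-like cells, at 91.6 and 186 CPM, log2 -1.01, on plates at 10.6 to 148 CPM and 158 to 251 CPM. That call was lost under 10 alternatives, and the log2 of Trp53 in mesangial-like cells was -0.76, -0.84 and -0.75 without plates 318, 322 and 314. In podocyte-like cells the p53 kinase gene Hipk2 was called higher (142 and 68.1 CPM, log2 1.04), 1 of 10 measured p53 regulators. It was lost under 7 alternatives, and the log2 of Hipk2 in podocyte-like cells was 0.69, 0.69, 0.98 and 0.92 without plates 313, 318, 317 and 326.

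Among 19 genes of DNA damage kinases and break sensing, Xrcc5, which encodes Ku80 of end joining, was called lower in IgAN endothelial-like cells (4.25 and 17.5 CPM), 1 of 15 measured. In podocyte-like cells Prkdc, the DNA-dependent kinase (74.2 and 29.8 CPM), and Rad50 of the break sensor (35.2 and 9.92 CPM) were called higher. Xrcc6, which encodes Ku70, was called lower (7.26 and 23.8 CPM). These were 3 of 15, beside 3.73% higher and 6.35% lower of all measured genes in that class. Without plates 313, 316 and 317 the log2 of Prkdc in podocyte-like cells was 0.97, 0.88 and 0.93, and without plate 316 the log2 of Rad50 in podocyte-like cells was 0.51, and neither was called. In mesangial-like cells Nbn, partner of Rad50, was called lower (46.6 and 120 CPM), 1 of 17. In the BCL2 family Bid, which links death receptors to Bax, was called higher in endothelial-like cells (29.7 and 12.6 CPM), 1 of 8, with 0 called in the other main classes. Among cell cycle genes Ccnd1, cyclin D1, was called higher in podocyte-like cells (68.1 and 27.9 CPM), 1 of 9. The replication helicase gene Mcm3 was called lower in mesangial-like cells (4.39 and 32.9 CPM), 1 of 12.

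The immediate early and dissociation genes were called most often in podocyte-like cells. Of 16 measured there 10 were called lower in IgAN and 1 higher, at a median log2 of -2.07, beside 6.35% and 3.73% of all measured genes. Fos was at 326 and 1088 CPM and Egr1 at 115 and 755 CPM, while the nuclear receptor gene Nr4a1 was at 2121 and 852 CPM. In endothelial-like and mesangial-like cells 0 of 17 were called. The comparison of podocyte-like cells rests on 2 IgAN plates.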

How the data were processed

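Smart-seq2 reads of 3143 cells were deposited by the authors as raw counts per gene, with no normalization. Tools listed in the submitters' processing notes, with no order or role, are Subread 1.4.6-p5, featureCounts, SAMtools 0.1.18 and TopHat2 2.1.1, with the build GRCm38 (mm10). Annotation, strand setting and duplicate handling were looked for and not given in the sources used here. Strand matters for Cdkn1a, whose exons share 273 bases with a gene on the opposite strand.

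Cells held 50365 to 1135415 reads. They were scaled, reduced to 2000 variable genes and 30 components, and clustered (15 neighbours, Leiden resolution 1, 23 clusters). Clusters were named from markers of 13 classes. No doublet caller was run, and cells with at least 25% of the median marker sum of 2 main classes were left out in 1 alternative. Reads were summed per class and group and given as CPM, and the rules for measured and called genes stand in the report. Groups came from the treatment label and plates from the cell names. The labels name no separate animals. Intervals (95%, exact Poisson or binomial Clopper-Pearson) and limits for 0 (3 counts over the group) cover counting error only, since reads without identifiers are not independent molecules.

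The 10 genes, the lists and the rules were chosen with earlier results of these data known. Named genes were the 10 in each class compared, list genes called in a main class (endothelial, podocyte, mesangial), the 2 most abundant of each list, not all of which are described, and the 3 most alike in log2(CPM + 10). Further p53 targets called in the other classes compared were named as well, and calls of the other lists there were not described. Shares at 10 and 100 CPM, well positions, concentration in 3 cells, the motif and its 13-base spacing, the limit for mixed markers and both added alternatives were chosen after seeing the data. The called rule was run on simulated data whose plates differed less than many real ones and whose reads had counting error only. That run cannot show how the rule behaves where few cells hold most of the reads. Alternatives were 13 planned settings, leaving out each of the 10 plates, and 2 added ones. Gene positions are GRCm38 from GENCODE vM21, and may differ from the annotation the authors counted on. The tools were matplotlib 3.10.9, leidenalg 0.10.2, anndata 0.12.19, scanpy 1.11.5, scipy 1.17.1, pandas 2.3.3, numpy 2.4.6 and Python 3.11.15.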

Additional observations from a re-analysis of the deposited data

Results flagged for a closer look

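In 68 sets of 4 or 6 plates, 7 had 1 plate far from the rest of its group, by the gap to the nearest plate over the range. The nominal rate by chance is about 1 in 20 sets. That rate was not checked for these values, where sets share plates and few cells often hold most of the reads. Bax in endothelial-like cells was at 278 CPM on IgAN plate 322, with the other IgAN plates at 128 to 161 CPM. Bbc3 in mesangial-like cells was at 52.4 CPM on IgAN plate 315, with the others at 0.242 to 7.09 CPM, and in endothelial-like cells at 47.5 CPM on Control plate 326, with the others at 28.7 to 31.0 CPM. In proximal tubule-like cells of IgAN plate 318, Mdm2 was at 104 CPM (others 46.3 to 53.5) and Gdf15 at 161 CPM (others 0.276 to 27.4). Zmat3 in macrophage or dendritic-like cells was at 36.8 CPM on IgAN plate 315 (others 0.121 to 10.2 CPM). Trp53inp1 in T or NK cell-like cells was at 49.7 CPM on Control plate 314 (others 81.5 to 87.3 CPM). The cause was not tested in any of these.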

How the results depend on the processing

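Over all alternatives no called value changed sign. For the 10 genes 1401 of 1420 values kept their side of the rule, 2 calls were lost and 17 gained. The number of the 10 genes called stayed at 0 in endothelial-like, macrophage or dendritic-like and T or NK cell-like cells under every alternative run. In mesangial-like cells it was 1, and Atm was called under every other setting run, the one on touching wells apart, but 2: with the 50 CPM filter the number was 0, and with cells thinned to 50000 reads Trp53inp1 took its place, while the log2 of Atm in mesangial-like cells was 4.45. It was 2 by the mean of per-cell CPM, where Trp53inp1 joined, and 5 without cells touching a well with more Atm reads (Ccng1 and Atm higher, Mdm2, Zmat3 and Trp53inp1 lower), where 526 genes were called higher and 467 lower, since fewer plates must lie apart. That last choice is made on Atm reads, so its Atm call bears on nothing.

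Leaving out each plate in turn, which makes the rule easier to meet, the number lay between 1 and 3 in mesangial-like cells (Trp53inp1 lower without plate 316 or 326, Cdkn1a higher without plate 326), 0 and 1 in podocyte-like cells (Mdm2 lower without plate 316, Cdkn1a lower without plate 321) and 0 and 2 in proximal tubule-like cells. There Cdkn1a and Bbc3 were called higher without plate 316, Cdkn1a and Phlda3 higher without plate 317, and Zmat3 lower without plate 321. With thinning it was 1 in proximal tubule-like cells (Phlda3 higher). The cause was not tested. Counts over all genes in that class were 687 higher and 232 lower, and 460 and 501 with median-of-ratios scaling, which moved the median log2 of all measured genes to 0.01, against 0.32. Leaving out a plate gave up to 1562 and 520 there. In podocyte-like cells they were 356 and 606, with 149 and 488 with plates of at least 5 cells and up to 694 and 1204 without a plate. In mesangial-like cells they were 132 and 151, and up to 368 and 416 without a plate. In endothelial-like cells they were 74 and 69, with 24 and 20 at a log2 limit of 2 and 126 and 117 with no low filter. In macrophage or dendritic-like cells they were 72 and 43, with 55 and 67 after median-of-ratios scaling and up to 185 and 105 without a plate, and for T or NK cells 44 and 118, and up to 89 and 223. With at most 1000 CPM of endothelial markers they were 186 and 307 for T or NK cells, 342 and 284 for proximal tubule-like cells and 44 and 51 for macrophage or dendritic-like cells.

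Leaving out mixed cells, or cells over 1000 CPM of endothelial markers, left too few plates of mesangial-like cells, and a 200 CPM limit, tried first, too few in every class. No paired analysis was possible because the labels give no replicate numbers shared between the groups. Few cells, 39 podocyte-like in IgAN and 51 mesangial-like in Control, limit what those classes can show.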
